A study of Mus musculus with 2 samples.

Results

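Nrf2, the transcription factor encoded by Nfe2l2, and 9 genes of antioxidant defence were followed in cystic and control mouse kidney. All probe sets whose platform symbol was one of the 10 gene names were taken, which gave 20 probe sets of the 45037 that were not array controls, for 10 of 18193 named genes. The members fall by known role into the regulator Nfe2l2, the 7 inducible genes Nqo1, Gclc, Gclm, Gsr, Hmox1, Txnrd1 and Srxn1, and the 2 genes with a high constitutive level in kidney, Cat and Gpx3. The rule that selects them uses no measured value, but the members were chosen with earlier results of these data known.

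The control mice carried normal Invs alleles (+/+) and the cystic mice were homozygous for the inv mutation (inv/inv), a model of nephronophthisis type 2. Both carried the transgene inv-deltaC::GFP, which encodes inversin without its C-terminus joined to a green fluorescent protein, so the control is not free of the transgene. What drives the transgene was not given in the sources used here, nor how many animals an array stands for. By age, the mice were 4 weeks old per the series design, and the labels of the cystic array give 28 days. Total RNA of whole kidney was read on 1 Affymetrix 430 2.0 array per group. The design text mentions 2 kidneys, without saying whether their RNA was pooled. With 1 array per group there is no error between animals and no test. A value was therefore set against a fixed limit of 2-fold and against the other probe sets of the same gene, which are technical repeats on the same RNA.

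Each array was checked against its labels. The brightest Invs probe set read 118 on the control and 15.9 on the cystic array, where the floor (the array's median signal) was 61.9, so the signal was at least 1.91-fold lower. Neither of the remaining probe sets for Invs reached the floor on any array. The cystic array is labelled female, and the labels of the control array give no sex. Xist, which is transcribed from the inactive X chromosome of females, read 387 on the control and 57.4 on the cystic array. The Y-linked gene Uty read 206 and 198, and Kdm5d, also Y-linked, 152 and 194. The sex label of the cystic array therefore goes against its Xist and Y-linked signals, and the control array had both Xist and Y-linked signal. Sex and genotype cannot be told apart in any ratio below. All 19 measured markers of the proximal tubule were above the floor on both arrays. Of the adrenal and liver markers 4 of 9 were measured, the brightest of them at a signal of 92.8.

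Nrf2 is held at a low level in unstressed cells by Keap1, an adaptor that brings it to a ubiquitin ligase. Oxidants and electrophiles modify Keap1, and Nrf2 then accumulates, pairs with small Maf proteins and binds antioxidant response elements near its target genes. These targets make and recycle glutathione, keep thioredoxin and peroxiredoxin reduced, and detoxify quinones and haem. Since Nrf2 is set largely at the protein level, the transcript of Nfe2l2 does not measure its activity. Catalase and the secreted glutathione peroxidase Gpx3 are made by the proximal tubule under resting conditions.

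The core of the antioxidant response element is TGACNNNGC. It was searched on both strands, overlaps allowed, in RefSeq promoters of the GRCm38.p6 assembly that run from 250 bases before to 50 bases after a start. The windows are shown because this core is what Nrf2 recognises in its target genes. Each is printed 5′ to 3′ on the strand that carries the match, with 10 bases on either side and the match in capitals.
Nfe2l2: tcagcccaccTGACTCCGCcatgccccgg
Gclm: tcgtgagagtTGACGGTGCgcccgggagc
Txnrd1: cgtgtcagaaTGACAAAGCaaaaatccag
Srxn1: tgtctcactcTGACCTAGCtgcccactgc
The Nfe2l2 window lies at chr2:75704885-75704913 on the minus strand, the strand of the gene, and its match ends 232 bases before the start. The Gclm window lies at chr3:122245413-122245441 on the minus strand, opposite to the gene, with the match 126 bases before the start. The Txnrd1 window lies at chr10:82859104-82859132 on the minus strand, opposite to the gene, 84 bases before 1 of its 3 listed starts. The Srxn1 window lies at chr2:152105542-152105570 on the minus strand, opposite to the gene, with the match 28 bases after the start. The promoter entries of Nqo1, Cat and Gpx3 held no match, and sequence outside the promoter entries was not searched. Gclc, Gsr and Hmox1 had no entry. Of the 7 member genes with an entry 4 held the letters, and 3781 of all 27025 genes (14.0%) did. By promoter, the counts were 4 of 9 members and 4071 of 32851 (12.4%). A match is a description of letters and not a bound site.

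In the cystic kidney the glutathione genes Gclc, Gclm and Gsr and the quinone reductase Nqo1 were lower than in the control at each of their 7 probe sets. These genes are grouped here by their direction, and 42.1% of all measured genes had a log2 ratio below 0. Hmox1, the inducible haem oxygenase, was higher, at 1.92-fold. The thioredoxin reductase gene Txnrd1 and the sulfiredoxin gene Srxn1 differed by 1.12-fold each, in opposite directions, at their brightest probe sets. Among the constitutive genes Cat was 1.98-fold lower and Gpx3 was at the same signal on both arrays. At the brightest probe set no member gene reached 2-fold in either direction. Over all measured genes 7.06% were at least 2-fold higher and 3.78% at least 2-fold lower.

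**Figure D1:**
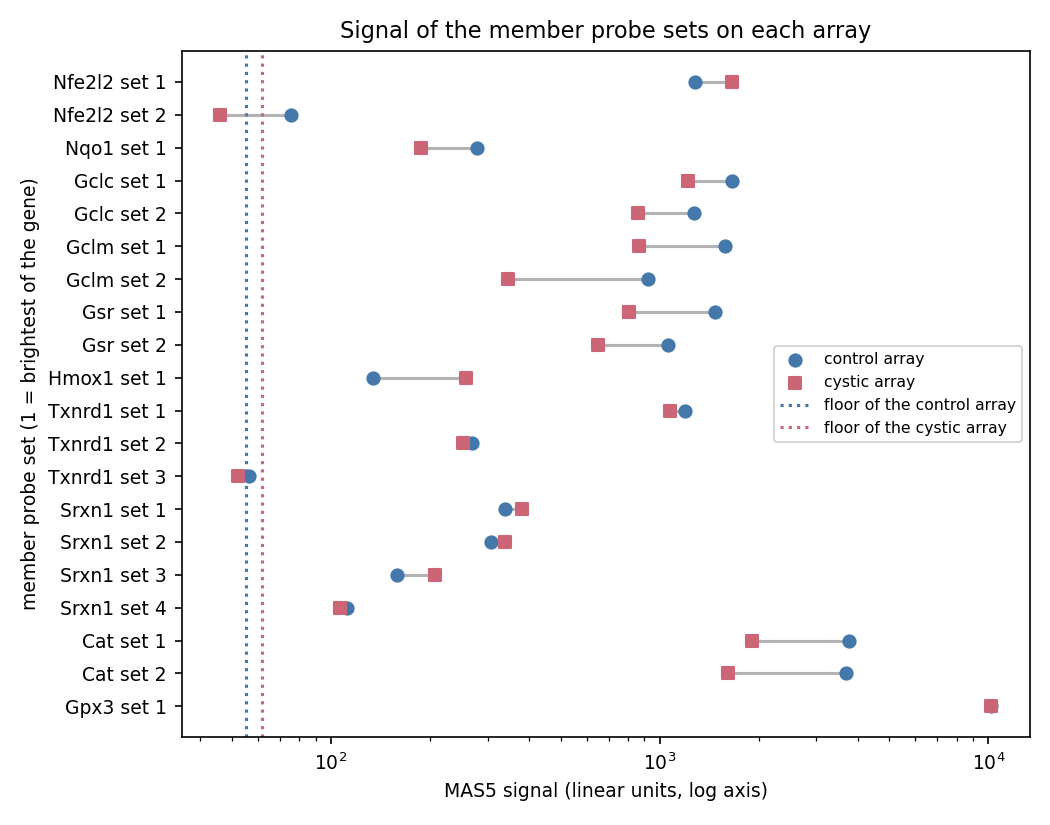
MAS5 signal (log axis) of the 20 member probe sets on the control array (circles) and the cystic array (squares), joined by a line, with the floor of each array dotted; probe sets are numbered from the brightest of a gene. Each Gclc, Gclm, Gsr, Nqo1 and Cat square lies left of its circle, the Hmox1 square lies right of it, and the Gpx3 markers (10153 and 10199) cover each other.

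Of the 20 member probe sets, 18 were above the floor on both arrays, and 2 had a cystic signal under it. The floors were 55.4 (control) and 61.9 (cystic), and a signal under its floor was raised to it. Between probe sets for the same gene the log2 ratio varied with a pooled SD of 0.29, over the 4694 genes that had at least 2 of them above both floors. Genes measured more than once thus set a limit of 0.59, which is 2 SD, for a difference larger than the spread between probe sets. By this measure Gclm, Gsr and Cat were lower and Hmox1 was higher, and the other 6 members were inside it. Over all 12015 measured genes 10.8% were lower and 16.3% higher by more than that. This spread is technical, pooled over all signal levels, and says nothing of the difference between animals. The probe sets share the same arrays, so it also leaves out errors of labelling and hybridization that are common to them.

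The regulator Nfe2l2 had a signal of 1286 on the control and 1662 on the cystic array at its brightest probe set. The ratio was 1.29-fold higher, a log2 ratio of 0.37. Its second probe set read 75.7 on the control and 46.1 on the cystic array, under the cystic floor, and so was at least 1.22-fold lower. The 2 probe sets of Nfe2l2 went in opposite directions, and the median over both was 0.04. The difference at the brighter one is inside the limit of 0.59, so no direction is read for the Nfe2l2 transcript.

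Gclc and Gclm encode the catalytic and the modifier subunit of glutamate-cysteine ligase, the rate-limiting enzyme of glutathione synthesis. Gclc read 1665 on the control and 1219 on the cystic array, and 1269 and 862 at its second probe set. The cystic signal was the lower one at both, with log2 ratios of -0.45 and -0.56. Gclm read 1585 and 867 at its brightest probe set, a log2 ratio of -0.87. At its second probe set it read 919 and 346, a log2 ratio of -1.41, which is 2.66-fold lower. The Gclm probe sets differ in size by 0.54 and have the same sign, so the direction was repeated and the 2-fold limit was passed at 1 of the 2.

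Gsr encodes glutathione reductase, which returns oxidised glutathione to its reduced form with NADPH. It read 1478 on the control and 810 on the cystic array, a log2 ratio of -0.87. The second Gsr probe set read 1059 and 649, a log2 ratio of -0.71. Both were lower by more than the 0.59 limit and neither by 2-fold. Among all measured genes, 5.09% had a lower ratio than Gclm and 5.14% a lower ratio than Gsr.

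Nqo1, an NADPH-dependent quinone reductase and a standard readout of Nrf2 activity, had 1 probe set. It read 278 on the control and 189 on the cystic array, a log2 ratio of -0.56, which is 1.47-fold lower. This lies just inside the 0.59 limit, and 11.5% of measured genes had a lower ratio. Under median centring, quantile normalization and loess the Nqo1 ratio was -0.72, -0.71 and -0.68.

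Txnrd1 encodes the cytosolic thioredoxin reductase, a selenoprotein. Its brightest probe set read 1198 on the control and 1074 on the cystic array, and its second 269 and 252. The log2 ratios of -0.16 and -0.09 were smaller than the SD between probe sets. The third Txnrd1 probe set read 56.6 and 52.2, near the floors, and gives no direction. Srxn1 encodes sulfiredoxin, which repairs overoxidised peroxiredoxins. It had 4 probe sets, which read 340, 308, 159 and 112 on the control and 382, 340, 207 and 107 on the cystic array. Of these 3 were higher and 1 was lower, with log2 ratios from -0.07 to 0.38. The brightest was 0.17, and it was 0.01 under median centring, so no difference is read for Srxn1.

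Hmox1 breaks haem down to biliverdin, iron and carbon monoxide, and is induced by Nrf2 and repressed by Bach1. It was read by 1 probe set, with a signal of 134 on the control and 258 on the cystic array. The log2 ratio was 0.94, or 1.92-fold higher, and 92.3% of measured genes had a lower ratio. Hmox1 and Gclm, both Nrf2 targets, thus went in opposite directions, with ratios that differ by 1.81 on the log2 scale. Macrophages take up and degrade haem, and their markers moved the same way as Hmox1. Of 16 macrophage markers 15 were measured, and 12 were at least 2-fold higher and none lower, with a median of 2.31. Their summed signal was 2531 on the control and 12884 on the cystic array, with 5 under the floor on the former and 1, Cd163 at 54.9, on the latter. The defining markers Adgre1 and Csf1r read 68.6 and 1198 on the control and 307 and 2370 on the cystic array. Fibroblast markers also moved the same way as Hmox1, with 10 of 10 at least 2-fold higher and a median of 2.08. The part of macrophages or fibroblasts in the Hmox1 difference was not tested.

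**Figure D2:**
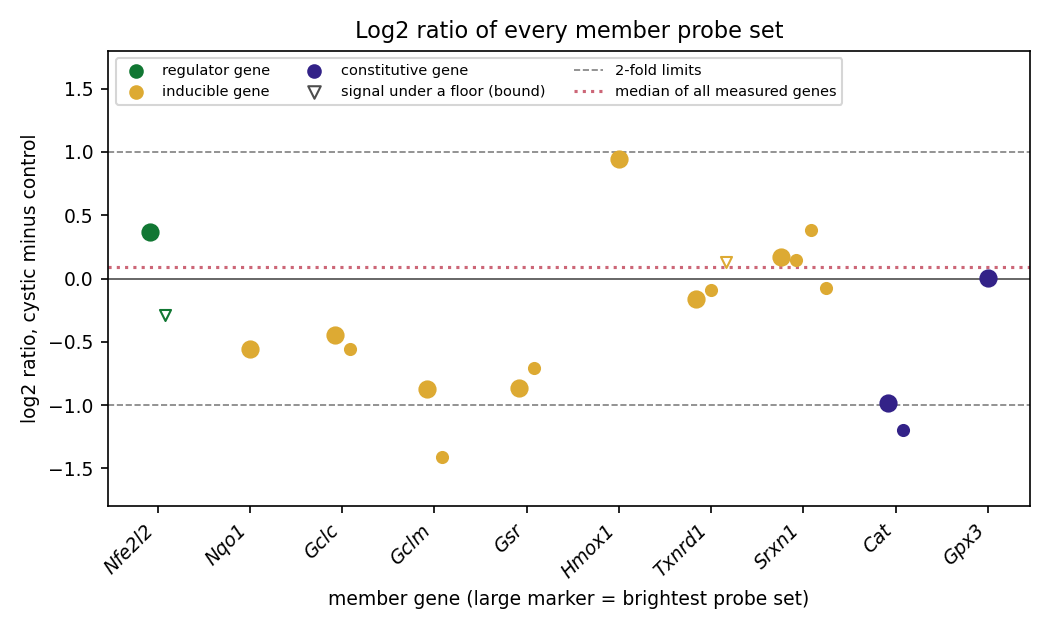
Log2 ratio (cystic minus control) of every member probe set, with the brightest of each gene as a large marker, bounds as open triangles, the 2-fold limits dashed and the median of all measured genes (0.09) dotted. The second probe sets of Gclm (-1.41) and Cat (-1.19) lie past the lower limit, and no probe set lies past the upper one.

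Catalase, encoded by Cat, splits hydrogen peroxide in peroxisomes. Its brightest probe set read 3780 on the control and 1913 on the cystic array, a log2 ratio of -0.98. The second read 3701 and 1619, a log2 ratio of -1.19, or 2.29-fold lower. Both Cat probe sets were lower by a similar amount, and 3.94% of measured genes had a lower ratio than the brightest. Of the 20 member probe sets, this one and the second of Gclm were at least 2-fold lower and none was at least 2-fold higher. Among all 24332 measured probe sets 3.21% were lower and 6% higher by that limit. Under median centring of the arrays 5 member probe sets were past 2-fold lower.

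Gpx3 encodes the plasma glutathione peroxidase, a selenoprotein that the kidney secretes into blood. It was read by 1 probe set, at 10153 on the control and 10199 on the cystic array, a log2 ratio of 0.01. The sign of this ratio depends on the scaling: it was -0.15 under median centring, -0.02 with trimmed means, 0.11 with quantile normalization and 0.21 with loess. The probe set ranked 7th on the control and 3rd on the cystic array, whose highest signals were 10910 and 10935. The 14 genes with a mean signal of 8000 or more had a median size of the log2 ratio of 0.14. It was 0.33 over all genes above the floor on both arrays. Since no signal exceeded 10935, that cut keeps ratios small and leaves no room for a 2-fold difference. Over the 100 brightest genes the median size was 0.30, with a lowest ratio of -1.56. Of these 100 genes, 4 were at least 2-fold lower and none was higher by that limit. Whether the signal was saturated was not tested, and the equal values of Gpx3 do not show equal amounts of its transcript.

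The inducible members had log2 ratios from -0.87 to 0.94, with a median of -0.45, and 5 of 7 were below 0. The constitutive members had a median of -0.49, which stands for Cat and Gpx3 alone. The median over all measured genes was 0.09, and 42.1% of them were below 0. Each group thus holds a gene lower by more than 0.59. Hmox1 was higher by more than that among the inducible genes, while in the constitutive group the other gene is Gpx3, for which no direction is read and which was below 0 under median centring and with trimmed means.

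Of the genes that control Nrf2, 15 of 18 were measured. Their median was 0.25, and no gene among them reached 2-fold by its value or bound. The values of Maff and Nfe2l3 are bounds against a raised control signal, and 1 gene was past 2-fold higher with the floor at the 40th percentile and 2 with no floor. Keap1 had ratios of 0.25 and 0.23 (log2) at its brighter and dimmer probe sets. Cul3, the scaffold of the ligase that Keap1 serves, had -0.31, and Sqstm1, a cargo receptor that withdraws Keap1, had -0.08. Bach1, the repressor that competes for the same elements, read 331 on the control and 520 on the cystic array, a ratio of 0.65 on the log2 scale (second 0.12). Among the small Maf partners, Mafk had 0.62 and Mafg -0.02 (second 0.47). Maff read 4.5 and 94.0, at least 1.70-fold higher, so a difference past 2-fold is possible. The related factor Nfe2l1 had 0.07. Dpp3, a protein that binds Keap1, had 0.60, and the ligase subunit Btrc had -0.31 (second 0.22). The 13 control genes above the floor on both arrays had ratios from -0.31 to 0.65.

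Other known Nrf2 targets went both ways. Of 50 listed genes, 40 had a probe set of their own and 35 were measured. Of these, 5 fell and 3 rose by at least 2-fold, and the median was -0.21. Over all measured genes 3.78% were at least 2-fold lower and 7.06% higher, and the share that rose here was near the latter. Osgin1, an oxidative stress-induced growth inhibitor, had the lowest log2 ratio, -1.74 (351 to 105). Me1, the cytosolic malic enzyme that makes NADPH, had -1.67 (3429 to 1078, second -2.14). Gss, the glutathione synthetase that completes the pathway begun by Gclc and Gclm, fell with -1.38 (1645 to 631, second -1.58). The glutathione transferase Gsta2 had -1.39 and the nucleotidase Entpd5 -1.30. In all, the 4 genes of glutathione synthesis and recycling had ratios below 0, from -1.38 to -0.45, a grouping made after the values were seen. The 3 that rose were the aldehyde and carbonyl-reducing or oxidising enzymes Aldh1a1, with 2.25 (65.7 to 312), Akr1b8, with 1.87 (86.5 to 316), and Cbr3, with 1.51 (56.6 to 161). The control signals of these 3 lay close to the floor of 55.4. Entpd5 and Cbr3 were named after their values were seen.

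Other antioxidant genes were measured in 36 of 39 cases, and 3 fell and 2 rose by at least 2-fold, with a median of -0.35. Shares over all measured genes were 3.78% lower and 7.06% higher by that limit, and the share that rose here was near the latter. Under median centring 7 fell and the median was -0.51. The 3 were the peroxisomal glutathione transferase Gstk1 (-1.38), Gpx6 (-1.36) and the transferase Gstz1 (-1.16). Nnt, which makes NADPH in mitochondria, had -0.93 (second -0.79). Gpx8, a peroxidase of the endoplasmic reticulum, rose with 1.45 and the methionine sulfoxide reductase Msrb3 with 1.19 (second 1.38). The superoxide dismutases Sod1, Sod2 and Sod3, named after their values were seen, had -0.74, -0.82 and -0.76, each repeated by a second probe set at -0.70, -0.96 and -0.77. They make hydrogen peroxide, the substrate of catalase and of the peroxidases. Of the other glutathione peroxidases, also named after their values were seen, Gpx1 had -0.30 (6877 to 5585), Gpx4 -0.74 (second -0.55) and Gpx7 0.87 (87.5 to 159.7), and Gpx2 was under the floor on both arrays.

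**Figure D3:**
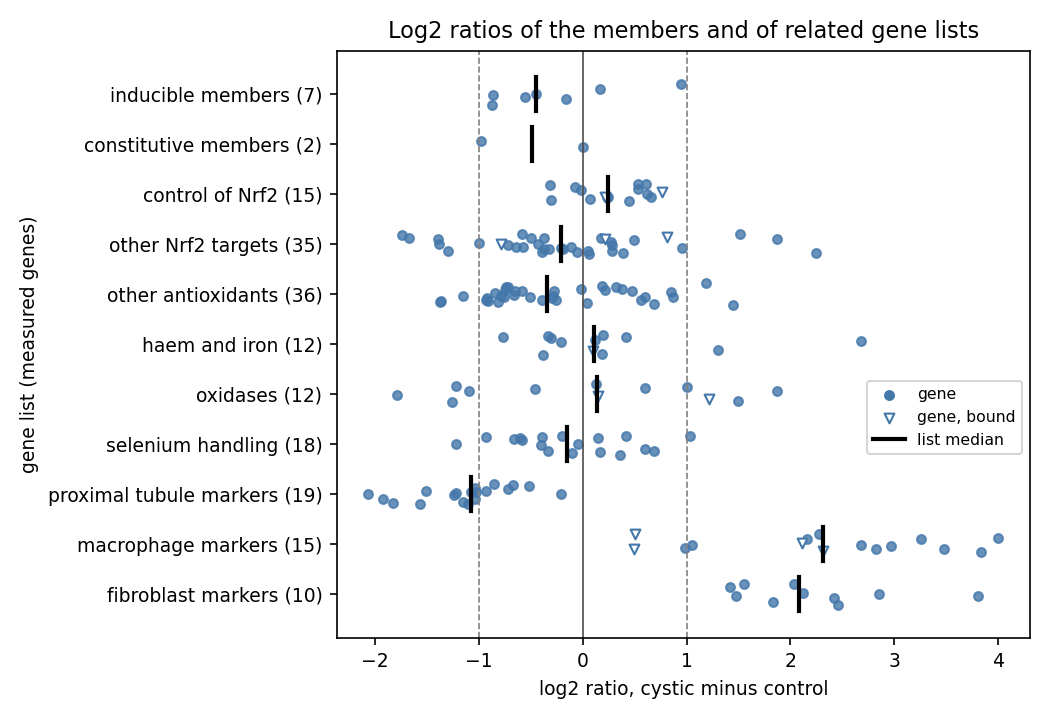
Log2 ratio (cystic minus control) of each measured gene in the member groups, in related lists and in 3 marker lists, with the number measured in parentheses, list medians as bars, bounds as open triangles and the 2-fold limits dashed. Other Nrf2 targets and other antioxidants spread to both sides with medians of -0.21 and -0.35, proximal tubule markers lie below 0 (median -1.07), and macrophage markers lie above it (median 2.31).

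Markers of the proximal tubule were lower together with Cat, Gclm and Gsr. Of 19 such markers 13 were at least 2-fold lower and none higher, with a median of -1.07. The count was 8 with quantile normalization and 7 with loess, with medians over the scalings from -1.23 to -0.91. Their summed signal was 102844 on the control and 53043 on the cystic array, and none was under the floor on either. They ranged from Slc22a6, the organic anion transporter, at -2.06 to Kap at -0.21. Fibroblast markers were at least 2-fold higher in 10 of 10, with a summed signal of 6605 and 29499. In whole kidney RNA, fewer cells of a type and less RNA per cell cannot be told apart. The 7 loop of Henle and distal tubule markers were also all below 0, from -2.03 to -0.09 with a median of -0.94. All Cat, Gclm and Gsr values lie within the range of either marker list, as do those of Gclc and Nqo1. The ranges are thus wide and not particular to the proximal tubule. The part of the tubule markers in the Cat, Gclm and Gsr differences was not tested.

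Genes that make superoxide or peroxide also went both ways, with 4 of 12 measured genes at least 2-fold higher and 4 lower. Their median of 0.14 was -0.02 under median centring. The shares over all measured genes were 7.06% higher and 3.78% lower. The phagocyte oxidase genes Cybb (1.87, second 1.66), Ncf1 (1.01, second 0.86) and Rac2 (1.49, second 0.25) rose, and Ncf4 was at least 2.32-fold higher. Cyba, the membrane partner of Cybb, had -0.46 (4186 to 3051) and was named after its value was seen. The count of genes that rose was 3 under each of the 4 other scalings, and 2 with the median over probe sets or the floor at the 60th percentile. Nox4, the NADPH oxidase of tubule cells, fell with -1.10 (2546 to 1190, second -0.96). The oxidases Ddo (-1.79, second -0.70), Dao (-1.26) and Hao2 (-1.22), which release hydrogen peroxide in peroxisomes, also fell. Nox4 and Hao2 were named after their values were seen. Cat, the peroxisomal enzyme that removes this peroxide, thus had a ratio of the same sign as these oxidases.

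In haem and iron handling beside Hmox1, 2 of 12 measured genes rose and none fell by 2-fold, with a median of 0.11 that was -0.05 under median centring. The shares over all measured genes were 7.06% higher and 3.78% lower. The 2 that rose were Cp, the iron oxidase ceruloplasmin, with 2.68 (273 to 1748, second 4.13), and Flvcr1, a haem exporter, with 1.31. The iron exporter Slc40a1 had 0.19 and Heph, an iron oxidase, 0.42. The iron importer Slc11a2 had -0.77 (second -0.34) and Fech, which completes haem synthesis, -0.38. Hmox2, the constitutive haem oxygenase, named after its value was seen, read 626 and 541, a log2 ratio of -0.21. The Hmox2 ratio is smaller than the SD between probe sets, and no direction is read from it. Of 7 red cell markers 4 had a probe set of their own. Only Slc4a1, which intercalated cells also express, was above the floor on either array, with -2.14 (second -1.87).

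Gpx3 and Txnrd1 contain selenocysteine, so genes of selenium supply were read beside them. Of 18 measured genes 1 rose and 1 fell by 2-fold, with a median of -0.15. Both counts were near the shares over all measured genes, 7.06% higher and 3.78% lower. Under median centring, quantile normalization and loess none rose. Lrp2, the tubule receptor that takes up selenoprotein P, fell with -1.22 (second -1.16) and is also a proximal tubule marker. Sephs2, which makes the selenium donor, had -0.94 (second -0.86), and the elongation factor Eefsec and the synthase Sepsecs had -0.67 and -0.60 (second of Sepsecs -0.34). The selenoproteins Selenon and Selenow had 1.03 and 0.69.

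**Figure D4:**
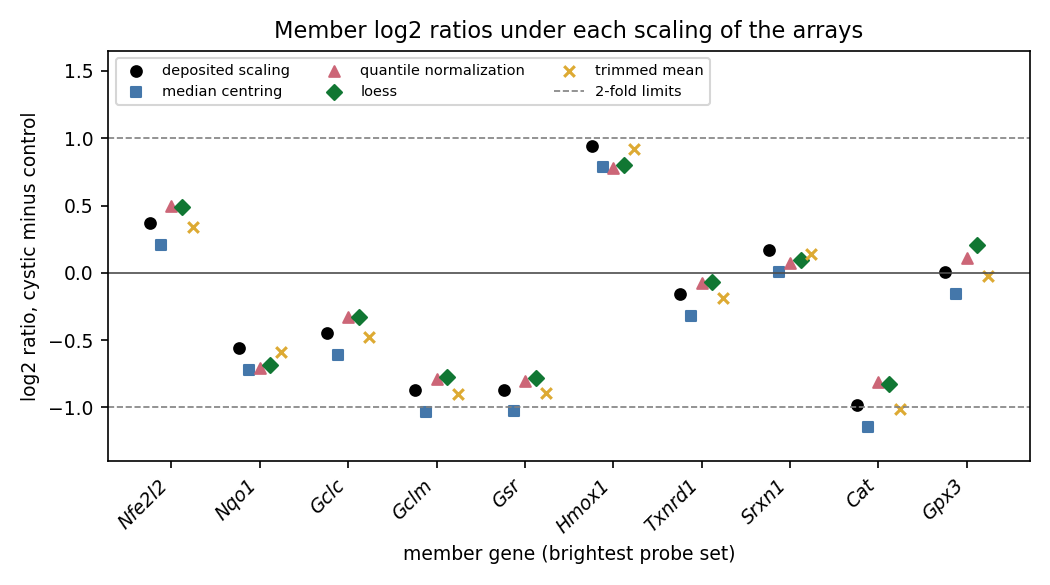
Log2 ratio (cystic minus control) of the brightest probe set of each member under the deposited scaling and 4 other scalings of the arrays, with the 2-fold limits dashed. Cat, Gclm and Gsr lie near the lower limit and cross it under median centring (-1.14, -1.03 and -1.03), Hmox1 stays between 0.78 and 0.94, and Gpx3 lies on both sides of 0.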

How the data were processed

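The authors deposited a linear MAS5 intensity, or signal, for each probe set, with MAS5 named in the submitters' processing notes; no version, scaling target or detection call was given in the sources used here. The 64 array controls were left out. The deposited scaling was kept because 2% trimmed means (178 and 181) differed by under 2%. Each array's median was its floor; a probe set under both floors was not measured, and a single lower signal was raised to the floor, giving a bound. Log2 ratios are cystic minus control. Each gene was read by its brightest probe set (mean of both log2 signals) of those naming no other gene, with symbols updated through RefSeq GRCm38.p6 for 34741 of 34945 probe sets. The members and 16 further gene lists were chosen with earlier results of these data known. All members were named; from other lists, up to 4 genes furthest in the direction of the median, up to 2 in the other, and the main Nrf2 partners. With 1 array per group no test was run, and "rose" and "fell" mean 2-fold or more. The number of arrays limits the precision. The steps were tested on simulated data. The alternatives were 4 scalings, 3 floors, 2 probe set rules and a 1.5-fold limit. Python 3.11.15, pandas 2.3.3 and statsmodels 0.14.6 were used. The lymphocyte, endothelium, podocyte, collecting duct and loop or distal tubule markers had medians of -0.36 (1 gene), 0.04, -0.60, 0.08 and -0.94, the adrenal and liver markers 0.24.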

Additional observations from a re-analysis of the deposited data

How the results depend on the processing

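No paired analysis was possible because each group has 1 array. No replicate could be left out for the same reason. Of 100 values of the 10 member genes under 10 alternatives, 99 moved by less than the SD between probe sets, and the other was Nfe2l2 over its 2 probe sets (0.04). The signs of all members were kept except that of Gpx3, which was below 0 in 2. The count of members past 2-fold lower was 0 as reported, 3 with median centring, 1 with trimmed means and 2 with the median over probe sets; at 1.5-fold it was 3, with 1 higher. The medians of the inducible and constitutive members stayed between -0.61 and -0.33 and between -0.65 and -0.31. At 1.5-fold, 5 other Nrf2 targets were higher and 9 lower, and 6 other antioxidants higher and 16 lower; 7 of the latter were 2-fold lower with median centring. Other antioxidants at least 2-fold higher numbered 1 with quantile normalization and 1 with the floor at the 60th percentile. Over all genes, 848 were higher and 454 lower, 1992 and 1520 with no floor, and 1970 and 1297 at 1.5-fold. Median centring moved the median of all genes from 0.09 to -0.07, lowered every member ratio by 0.16 and moved the higher share of calls from 65.1% to 47.5%. The causes were not tested, beyond the looser limit and the missing floor, which by construction admit more genes.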
